A study of Mus musculus with 27 samples.

Results

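The insulin-like growth factor (IGF) axis was followed at the RNA level through 8 mouse genes: Igf1, which encodes the growth factor IGF-I; Igf1r, which encodes its receptor; and Igfbp2, Igfbp3, Igfbp4, Igfbp5, Igfbp6 and Igfbp7, which encode 6 IGF-binding proteins. They were taken by symbol from the 48440 genes of the count table, and all 8 passed the filter on low counts that left 18684 genes for testing. The cells were wild-type primary lung fibroblasts of C57BL/6 mice, grown with 15% fetal bovine serum at 3% oxygen, and every group shared that background. 27 RNA-seq libraries made up 9 groups of 3. KU60019, a small molecule that blocks the kinase ATM, was given at 3 uM for 15 d or 35 d beside DMSO alone. Cells were harvested at that time or after 20 more days without either agent, here called removed. The remaining group, irradiated with 10 Gy of X-rays, was taken 10 d later and served as the positive control for senescence. No unirradiated cells of its own were listed for that group, so it was set against DMSO at 15 d. Each group has 3 libraries whose titles end in the same numbers (S1_705, S2_715 and S3_716 for DMSO 15 d), and values are given in that order. No label says whether these numbers mark mice. If they are not separate animals or cultures, the p-values measure only the spread between these samples, which may be technical. The labels do not give the age of the mice.

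IGF-I is a secreted growth factor that acts through the receptor tyrosine kinase encoded by Igf1r, and most of it outside cells is held by binding proteins. These proteins limit or prolong access of the factor to its receptor, and several also act on cells without it. Fibroblasts secrete several of them, and binding proteins are among the secreted products described for senescent cells.

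Over the whole series the binding proteins did not move as a block. With KU60019 for 15 d, Igfbp3, Igfbp4, Igfbp5, Igfbp6 and Igf1 were all lower than with DMSO. After 20 d without the inhibitor following those 15 d, Igfbp3, Igfbp5 and Igfbp6 were higher than in their own controls, while Igf1 was lower. After 20 d without it following 35 d, Igfbp3 was again higher, but Igfbp5 was lower and Igf1 higher, and Igfbp6 was not called. Igfbp5 had the widest span, Igfbp7 and Igf1r the narrowest, and the vehicle cultures themselves changed most after 35 d with DMSO and 20 d without it.

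Genomic positions below are those of GRCm38 with the GENCODE M21 annotation. Igf1 lies on chromosome 10 (87858265 to 87937042, plus strand) and Igf1r on chromosome 7 (67952827 to 68233668, plus strand). Igfbp2 (72824503 to 72852474, plus strand) and Igfbp5 (72857932 to 72874884, minus strand) are neighbours on chromosome 1, 5457 bp apart with their ends facing each other. Igfbp3 (7206086 to 7213923, minus strand) and Igfbp4 (99041244 to 99054392, plus strand) lie on chromosome 11, Igfbp6 on chromosome 15 (102144362 to 102149511, plus strand) and Igfbp7 on chromosome 5 (77349240 to 77408041, minus strand). Igfbp7 shares exon bases with Polr2b. No source used here says whether counting used strand, so reads of these 2 genes may not have been told apart and the values of Igfbp7 are uncertain to that extent. Igf1os lies within the span of Igf1 without sharing exon bases.

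The promoters of Igfbp3, Igfbp4, Igfbp5 and Igfbp6 are shown because these 4 binding protein genes were lower together at 15 d. Each line gives, 5′ to 3′ on the gene's own strand, the 150 bases just before the RefSeq start (GRCm38.p6: chr11:7213924-7214073 minus strand, chr11:99041094-99041243 plus strand, chr1:72874866-72875015 minus strand and chr15:102144036-102144185 plus strand). Capitals mark the letters TATAAA on either strand and at any distance from the start. Such a match alone does not show a working TATA box.
Igfbp3: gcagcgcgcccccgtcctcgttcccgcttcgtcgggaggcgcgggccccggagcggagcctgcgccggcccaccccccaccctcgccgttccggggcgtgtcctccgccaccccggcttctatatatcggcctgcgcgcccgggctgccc
Igfbp4: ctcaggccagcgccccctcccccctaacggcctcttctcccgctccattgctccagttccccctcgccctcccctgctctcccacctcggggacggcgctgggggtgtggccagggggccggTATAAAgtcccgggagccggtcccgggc
Igfbp5: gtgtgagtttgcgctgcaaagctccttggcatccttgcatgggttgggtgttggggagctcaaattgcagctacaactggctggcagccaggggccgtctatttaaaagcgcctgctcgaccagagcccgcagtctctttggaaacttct
Igfbp6: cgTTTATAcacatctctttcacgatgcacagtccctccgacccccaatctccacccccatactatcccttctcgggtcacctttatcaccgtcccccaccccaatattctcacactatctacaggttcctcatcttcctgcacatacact

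In the 250 bases before the start, 5 motifs were searched on both strands. The TATA box, searched only as TATAAA, occurs in 12.4% of the 32851 RefSeq promoters of that length. The GC box, spelled GGGCGG, occurs in 32.7% and the AP-1 site, spelled TGANTCA, in 6.75%. The FoxO site, spelled GTAAACA, occurs in 3.17% and the p53 recognition decamer, searched by name, in 7.13%. No matches within the 8 genes' windows overlap each other. Igfbp4 has TATAAA at positions -28 to -23 on its own strand, and Igfbp6 has it on the other strand at -148 to -143. None of the 5 motifs was found in the windows of Igfbp3 and Igfbp5 as searched. The strings tatatat in Igfbp3 and tatttaaaa in Igfbp5 differ from the searched TATAAA and were not counted, so a TATA-like element there is not excluded. Elsewhere, Igfbp7 has 4 GC boxes, Igfbp2 has 3 at one of its 2 RefSeq starts and an AP-1 match at the other, Igf1r has 2 GC boxes and Igf1 has an AP-1 match at -37 to -31. The GC content of the window was 73.2% for Igfbp3, 69.2% for Igfbp4, 58.8% for Igfbp5 and 49.6% for Igfbp6, against a median of 52.4% over all promoters. No searched motif was thus found in all 4 windows. The RefSeq window of Igfbp6 ends at 102144185, upstream of its M21 start at 102144362, and the bases between them were not searched.

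Library totals ran from 20659745 to 50859493 counts with a median of 31265114. Ribosomal RNA genes took more than 0.4% of counts in 4 libraries, S19_705 and S20_715 of DMSO 35 d removed, S7_705 of DMSO 15 d removed and S27_716 of the irradiated cells. Spearman's rho between a gene's deviation and its length was 0.24 to 0.34 in 7 libraries of DMSO 15 d, DMSO 15 d removed and DMSO 35 d, and from -0.23 to 0.11 in the other 20, with all 9 libraries of KU60019 15 d removed, DMSO 35 d removed and KU60019 35 d removed below 0. The 10 fibroblast markers were all tested, and their summed level lay between 12300 and 63400 CPM (counts scaled to the library size) in every library. Markers of other cell types were lower, with sums over 7 pericyte and smooth muscle markers of 87.2 to 909 CPM (the highest in S19_705, where the fibroblast sum was 14000 CPM), over 5 adipocyte markers of 4.43 to 188 CPM, over 12 endothelial markers of 10.5 to 135 CPM and over 11 macrophage markers of 12.4 to 99.7 CPM.

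Levels can be set between genes only per length, on the deposited TPM (transcripts scaled to gene length and library size). The median TPM over the 27 libraries was 1350 for Igfbp7, 1230 for Igfbp4, 276 for Igfbp6, 241 for Igfbp2, 120 for Igfbp5, 80.4 for Igf1, 49.6 for Igfbp3 and 10.1 for Igf1r. Igfbp7 and Igfbp4 thus formed most of the binding protein RNA. Igfbp1, the remaining classical binding protein, had 11 counts in all, spread over 5 libraries, and was not tested. From here on levels are CPM of the counts scaled by edgeR's TMM factors, and differences are log2 fold changes ± SE. In comparisons with DMSO, rose and fell mean higher and lower than in the DMSO group set beside it, not a change over time. Calls use an adjusted p under 0.05 over all 18684 genes in edgeR's quasi-likelihood test.

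**Figure D1:**
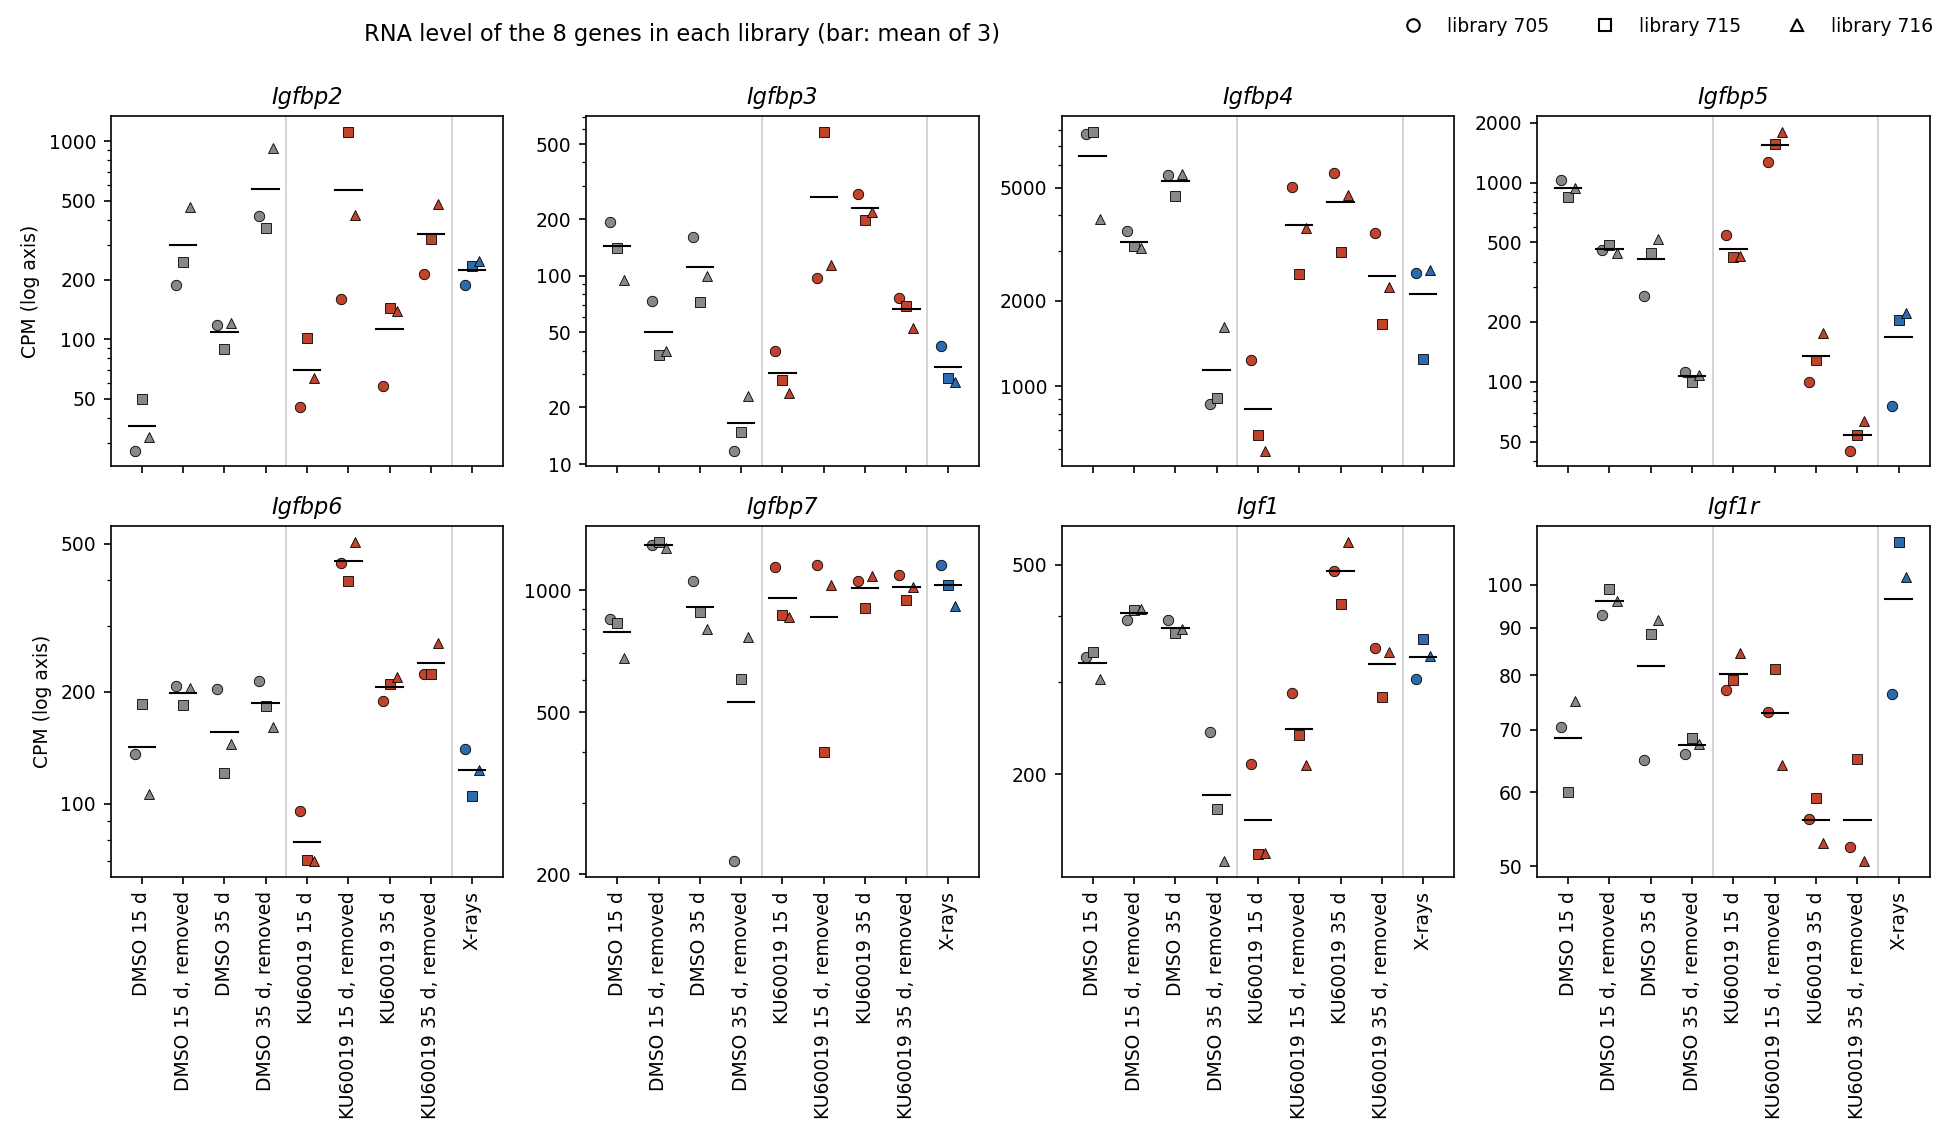
CPM on log axes (y) of each of the 8 genes in the 9 groups (x), with 1 point per library and a bar at the mean of 3; grey is DMSO, red KU60019 and blue X-rays. Igfbp5 spans group means from 54 CPM in KU60019 35 d removed to 1540 CPM in KU60019 15 d removed, while Igf1r stays between 56.1 and 96.5 CPM.

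Igf1, the ligand, stood at 334, 342 and 304 CPM with DMSO for 15 d and at 209, 141 and 142 CPM with KU60019. Every inhibitor library was below every vehicle library, and Igf1 fell by 0.99 ± 0.18 on the log2 scale (edgeR adjusted p = 2.81e-04). At 35 d it read 393, 371 and 377 CPM with DMSO and 487, 421 and 552 CPM with KU60019, ranges that do not overlap, yet the change of 0.36 ± 0.18 had an edgeR adjusted p of 0.175. After removal at 15 d the order was again the lower one, at 286, 238 and 208 CPM against 393, 410 and 413 CPM, and Igf1 fell by 0.73 ± 0.18 (edgeR adjusted p = 0.00244). The inhibitor libraries of the removal at 35 d, at 348, 281 and 342 CPM, all exceeded their vehicle ones, at 241, 172 and 137 CPM, and Igf1 rose by 0.82 ± 0.18 (edgeR adjusted p = 6.75e-04). Irradiated cells, at 304, 362 and 336 CPM, overlapped DMSO 15 d, with a difference of 0.03 ± 0.18. The fall after removal at 15 d depended on the handling of gene length: with each library's length trend taken out it was -0.41, with an edgeR adjusted p of 0.0986, and the change at 35 d was then 0.59 and called (edgeR adjusted p = 0.0489).

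Igf1r, the receptor, varied least of the 8 genes, with 1.72-fold between its highest and lowest group means. With DMSO it read 70.4, 60.1 and 75.2 CPM at 15 d and 65, 88.6 and 91.8 CPM at 35 d. With KU60019 it read 77.1, 79.1 and 84.5 CPM at 15 d and 56.2, 59.1 and 53 CPM at 35 d. The inhibitor libraries were thus the higher ones at 15 d and the lower ones at 35 d. Only the second difference passed the test, as Igf1r fell by 0.54 ± 0.14 at 35 d (edgeR adjusted p = 0.00985) against a difference of 0.23 ± 0.14 at 15 d (edgeR adjusted p = 0.239). After removal at 15 d the levels were 73.1, 81.3 and 64.2 CPM against 92.9, 99 and 96.2 CPM, a fall by 0.40 ± 0.14 (edgeR adjusted p = 0.025). After removal at 35 d they were 52.5, 65.2 and 50.7 CPM against 66, 68.5 and 67.6 CPM, without overlap but with an edgeR adjusted p of 0.131. In irradiated cells Igf1r read 76.5, 111 and 102 CPM, all above DMSO 15 d, and rose by 0.49 ± 0.14 (edgeR adjusted p = 0.0111).

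The Igf1r transcript is long, with 16791 exon bases, and its calls moved with the treatment of gene length. With the length trend removed, the value was 0.53 at 15 d (edgeR adjusted p = 9.65e-04), -0.24 at 35 d (edgeR adjusted p = 0.138) and -0.05 after removal at 15 d (edgeR adjusted p = 0.748). The fall at 35 d was also lost without S14_715 or S15_716 of DMSO 35 d (edgeR adjusted p = 0.0593 and 0.079). The fall after removal was lost without S8_715 or S9_716 of DMSO 15 d removed or S12_716 of KU60019 15 d removed (edgeR adjusted p = 0.0756, 0.0517 and 0.111), and the rise with X-rays without the irradiated S26_715 (edgeR adjusted p = 0.0798), with library size alone (edgeR adjusted p = 0.0548) and with limma on TPM (0.26).

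Igfbp2, a binding protein expressed widely in fetal tissues and in some tumours, was low in DMSO 15 d, at 27.4, 49.6 and 31.9 CPM, and reached 45.6, 101 and 63.8 CPM with KU60019. These ranges overlap, and the difference of 0.95 ± 0.52 did not pass the test (edgeR adjusted p = 0.178). At 35 d the levels with DMSO were 118, 89.4 and 121 CPM and those with KU60019 58.1, 143 and 139 CPM. After removal they were 187, 244 and 465 CPM against 159, 1110 and 424 CPM for 15 d, and 420, 365 and 927 CPM against 213, 320 and 481 CPM for 35 d. KU60019 therefore gave no called change in Igfbp2 in any of its 4 comparisons with DMSO by edgeR, although the gene varied 15.7-fold between groups and all 4 groups without the agent had mean levels above all 4 groups still in it. Irradiated cells had 187, 233 and 248 CPM, each well above DMSO 15 d, and Igfbp2 rose by 2.62 ± 0.55 (edgeR adjusted p = 9.86e-04). Against DMSO 35 d the same libraries differed by 1.02 (edgeR adjusted p = 0.148). Single libraries weighed on Igfbp2 after removal at 15 d, where the difference was 0.92 ± 0.52 with all, 1.36 (edgeR adjusted p = 0.0234) without S10_705 and -0.04 without S11_715 of KU60019.

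Igfbp3 is the main carrier of IGF-I in blood and a product of fibroblasts. It stood at 194, 141 and 94.5 CPM with DMSO for 15 d and at 40, 27.9 and 23.7 CPM with KU60019. The ranges are far apart, and Igfbp3 fell by 2.23 ± 0.50 (edgeR adjusted p = 0.00187). At 35 d the inhibitor libraries, at 271, 197 and 219 CPM, instead exceeded the DMSO libraries, at 160, 72.4 and 99.3 CPM, with a change of 1.05 ± 0.48 that missed the threshold (edgeR adjusted p = 0.137). After removal at 15 d KU60019 gave 97, 578 and 114 CPM against 73.2, 38 and 39.8 CPM, and Igfbp3 rose by 2.39 ± 0.50 (edgeR adjusted p = 8.33e-04). Without S11_715, the library at 578 CPM, the rise was 1.06 (edgeR adjusted p = 0.0235), and limma on TPM gave 1.36. After removal at 35 d the levels were 76.5, 69.4 and 52.8 CPM against only 11.8, 14.8 and 23.1 CPM, a rise by 1.99 ± 0.50 (edgeR adjusted p = 0.00242). X-rays left 42.5, 28.6 and 27.4 CPM, below all DMSO 15 d libraries, and Igfbp3 fell by 2.12 ± 0.50 (edgeR adjusted p = 0.00261).

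Igfbp4, a binding protein cleaved by the protease pregnancy-associated plasma protein A (encoded by Pappa), had 7740, 7850 and 3890 CPM with DMSO for 15 d. With KU60019 it had 1240, 673 and 594 CPM, so that even the highest inhibitor library was below the lowest vehicle library. Igfbp4 fell by 2.96 ± 0.39 (edgeR adjusted p = 8.64e-06), the largest fall of the 8 genes at 15 d. At 35 d, 5620, 2980 and 4720 CPM overlapped the 5560, 4670 and 5580 CPM of DMSO. So did the 5050, 2480 and 3600 CPM after removal at 15 d with their controls at 3510, 3120 and 3070 CPM. Neither comparison was called for Igfbp4, with values of -0.25 ± 0.36 and 0.20 ± 0.36. After removal at 35 d Igfbp4 read 3470, 1660 and 2230 CPM against 869, 913 and 1620 CPM and rose by 1.11 ± 0.37 (edgeR adjusted p = 0.0155). That call was lost without S19_705 or S20_715 of DMSO 35 d removed (edgeR adjusted p = 0.0687 and 0.0658) or S22_705 of KU60019 35 d removed (edgeR adjusted p = 0.113). Irradiated cells had 2510, 1250 and 2570 CPM, below DMSO 15 d, and Igfbp4 fell by 1.62 ± 0.37 (edgeR adjusted p = 0.00208).

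Igfbp5, a binding protein that attaches to extracellular matrix, stood at 1030, 843 and 943 CPM with DMSO for 15 d and at 545, 422 and 428 CPM with KU60019. It fell by 1.01 ± 0.29 (edgeR adjusted p = 0.0102), a call just lost without S5_715 of KU60019 15 d (edgeR adjusted p = 0.0505). At 35 d it read 99.4, 128 and 175 CPM against 270, 444 and 519 CPM and fell by 1.62 ± 0.29 (edgeR adjusted p = 4.84e-04). Removal after 15 d was followed by the highest levels of the gene in the series, 1270, 1570 and 1790 CPM against 458, 484 and 442 CPM. Igfbp5 there rose by 1.74 ± 0.29 (edgeR adjusted p = 2.02e-04). Removal after 35 d was followed by its lowest levels, 45.1, 53.7 and 63.1 CPM against 112, 100 and 108 CPM, and it fell by 0.98 ± 0.29 (edgeR adjusted p = 0.00734). That call was lost with library size alone (-0.67, edgeR adjusted p = 0.0658) and with limma on TPM (-0.49). Irradiated cells had 75.7, 204 and 220 CPM, and Igfbp5 fell by 2.49 ± 0.30 against DMSO 15 d (edgeR adjusted p = 2.68e-06). Igfbp5 was thus the only one of the 8 genes called in all 5 comparisons with DMSO, lower in 4 of them and higher after removal at 15 d.

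Igfbp6, which prefers IGF-II to IGF-I, had 136, 185 and 106 CPM with DMSO for 15 d and 95.9, 70.8 and 70.3 CPM with KU60019. It fell by 0.85 ± 0.20 (edgeR adjusted p = 0.00237). At 35 d the levels were 189, 210 and 219 CPM with KU60019 and 203, 121 and 145 CPM with DMSO, ranges that overlap, with a difference of 0.40 ± 0.20 (edgeR adjusted p = 0.162) that was 0.64 and called without S13_705 of DMSO 35 d (edgeR adjusted p = 0.0315). Removal after 15 d gave 444, 396 and 504 CPM against 207, 184 and 205 CPM, the highest 3 libraries for this gene in the series, and Igfbp6 rose by 1.17 ± 0.20 (edgeR adjusted p = 2.03e-04). With removal at 35 d, 223, 223 and 270 CPM stood against 214, 183 and 161 CPM, just without overlap, at 0.36 ± 0.20 (edgeR adjusted p = 0.132), which was 0.69 and called with library size alone (edgeR adjusted p = 0.00329). In irradiated cells, 140, 105 and 123 CPM overlapped DMSO 15 d.

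Igfbp7, a related secreted protein of blood vessels and stroma with low affinity for IGFs, was abundant and even. At 15 d it read 1140, 869 and 859 CPM with KU60019 and 847, 832 and 681 CPM with DMSO. At 35 d it read 1050, 904 and 1080 CPM and 1050, 881 and 801 CPM. Irradiated cells had 1150, 1030 and 912 CPM. The ranges overlap at 35 d and lie apart, with DMSO lower, at 15 d and with X-rays, but none of these 3 differences, from 0.15 to 0.39, was called by edgeR, DESeq2 or limma. After removal at 15 d KU60019 gave 1150, 399 and 1030 CPM against 1290, 1310 and 1270 CPM, all below, with a difference of -0.59 ± 0.32 (edgeR adjusted p = 0.137). It was -0.96 and called with the length trend removed (edgeR adjusted p = 0.00958) and -0.86 without S10_705 (edgeR adjusted p = 0.0497). In the removal at 35 d, 1090, 945 and 1020 CPM stood against 216, 606 and 767 CPM, and Igfbp7 rose by 0.94 ± 0.33 (edgeR adjusted p = 0.0208). That rise was 0.56 (edgeR adjusted p = 0.101) without S19_705 of DMSO 35 d removed, which held the lowest Igfbp7 level and, at 2.91%, the highest ribosomal RNA share of the series. It was also lost without S22_705 of KU60019 35 d removed (edgeR adjusted p = 0.0561) and with only these groups in the fit (edgeR adjusted p = 0.114).

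**Figure D2:**
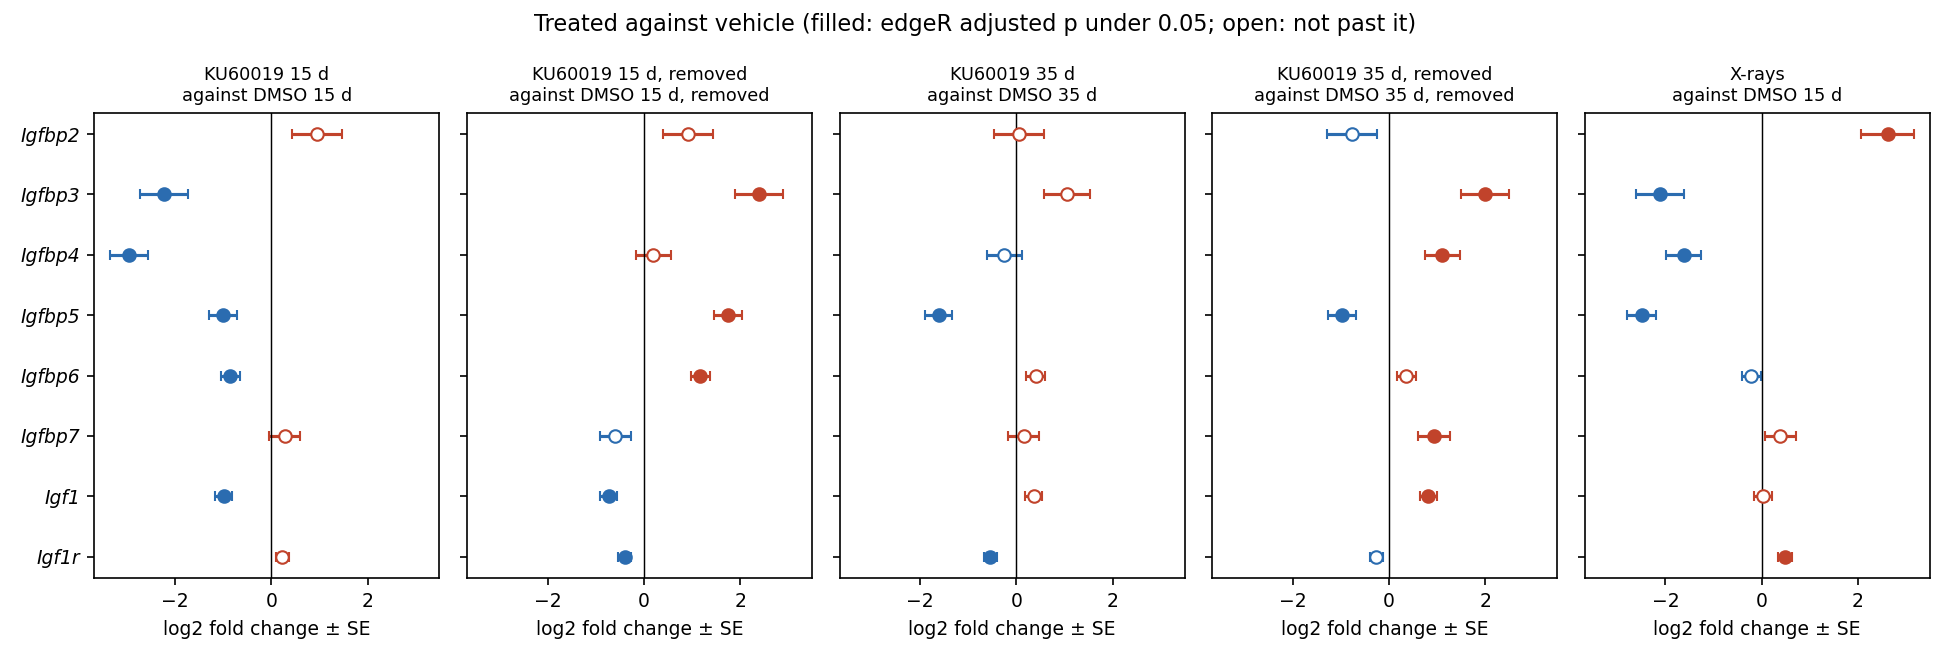
Log2 fold change ± SE (x) of each of the 8 genes (y) in the 5 comparisons with DMSO, 1 panel each, from the edgeR fit; filled points passed an adjusted p of 0.05 and open points did not. At 15 d the 5 filled points lie left of 0, down to -2.96 for Igfbp4, and after removal at 15 d the filled points of Igfbp3, Igfbp5 and Igfbp6 lie right of it; red marks values above 0 and blue those below.

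Taking the comparisons one at a time, 5 of the 8 genes were lower with KU60019 at 15 d: Igf1, Igfbp3, Igfbp4, Igfbp5 and Igfbp6. Over all genes tested, 17.1% were called lower and 13.2% higher, and the median log2 fold change was -0.92 for the 8 genes and -0.02 for all genes. Summed fibroblast markers were also lower, at 12500 to 15100 CPM against 35000 to 52100 CPM, with 5 of 10 markers called lower and 1 higher. Of 12 endothelial markers 10 were called lower, with sums of 13.6 to 19.6 CPM against 43.9 to 135 CPM. Of 8 macrophage markers tested 5 were called lower and 2 higher, with overlapping sums. Mesothelial markers summed to 16.9 to 22.9 CPM against 5.52 to 9.35 CPM, with 2 of 6 called higher and 1 lower. In these bulk samples, fewer cells of a type and less RNA per cell cannot be told apart, and the part of these marker lists in the result was not tested. Including the replicate number as a block, which these 2 groups supported, gave the same 5 calls.

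At 35 d with KU60019, 2 of the 8 genes were called, Igfbp5 and Igf1r, both lower. The background was 8.4% of genes lower and 9.7% higher, and the median was 0.10 for the 8 genes against -0.01 for all. With only these 2 groups in the fit, 4 of the 8 were called, the added ones being Igf1 at 0.39 (edgeR adjusted p = 0.0489) and Igfbp3 at 1.09 (edgeR adjusted p = 0.0227). Calls over all genes were also more in that fit, at 2578 higher and 2339 lower against 1812 and 1569 in the main fit. Fibroblast markers summed to 19700 to 21100 CPM against 42900 to 52700 CPM, with 6 of 10 called lower and 2 higher, and pericyte and smooth muscle markers to 87.2 to 143 CPM against 280 to 405 CPM, with 1 of 7 called lower and 1 higher. Of 7 Schwann cell markers tested 5 were called higher, with sums of 27.6 to 122 CPM against 13.9 to 14.8 CPM, as were 4 of 12 endothelial and 3 of 8 macrophage markers. Their part was not tested.

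The inhibitor's effect at 35 d differed from that at 15 d for 5 genes in a direct test. It was higher at 35 d for Igfbp3 by 3.28 ± 0.69 (edgeR adjusted p = 0.00319), for Igfbp4 by 2.71 ± 0.52 (edgeR adjusted p = 0.0015), for Igf1 by 1.35 ± 0.25 (edgeR adjusted p = 0.00125) and for Igfbp6 by 1.25 ± 0.28 (edgeR adjusted p = 0.00457). For Igf1r the difference was -0.77 ± 0.20 (edgeR adjusted p = 0.0141), and without S15_716 of DMSO 35 d it was -0.67 (edgeR adjusted p = 0.0522). Such differences were called up for 7.11% and down for 4.58% of all genes. For Igfbp5, lower with KU60019 at both times, the difference of -0.60 ± 0.40 was not called (edgeR adjusted p = 0.4).

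After 15 d of KU60019 and 20 d without it, Igfbp3, Igfbp5 and Igfbp6 were higher and Igf1 and Igf1r lower than in the matching DMSO cultures. These are 3 of 8 higher against 24.7% of all genes and 2 of 8 lower against 24%, with medians of 0.56 and -0.01. Library S11_715 of this group stood apart, with the highest Igfbp3 and Igfbp2 levels of the series and the lowest Igfbp7 level outside DMSO 35 d removed. In the same library 6 chondrocyte markers summed to 123 CPM, against 10.7 and 21.1 CPM in the other two, and their part was not tested. Fibroblast markers summed to 23700 to 31300 CPM against 55600 to 63400 CPM, with 7 of 10 called lower, and pericyte and smooth muscle markers to 331 to 378 CPM, below every control library, of which the highest was at 852 CPM, with 4 of 7 called lower and 1 higher. Of the Schwann cell markers 5 of 7, and of the endothelial markers 3 of 12, were called higher. The part of these lists in the result was not tested. Against the effect at 15 d, the effect after removal was higher for Igfbp3 by 4.62 ± 0.71 (edgeR adjusted p = 9.81e-05), which was 3.29 (edgeR adjusted p = 8.24e-05) without S11_715. It was also higher for Igfbp4 by 3.16 ± 0.52 (edgeR adjusted p = 2.08e-04), for Igfbp5 by 2.75 ± 0.41 (edgeR adjusted p = 6.93e-05) and for Igfbp6 by 2.02 ± 0.28 (edgeR adjusted p = 3.34e-05). For Igf1r it was lower, at -0.62 ± 0.20 (edgeR adjusted p = 0.0272), a call lost without S2_715, S6_716, S8_715 or S12_716 (edgeR adjusted p from 0.0611 to 0.0804). Differences of this kind were called up for 14% and down for 11.4% of genes. They use the same 15 d libraries as the test between 15 d and 35 d, so the 2 sets are not independent.

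**Figure D3:**
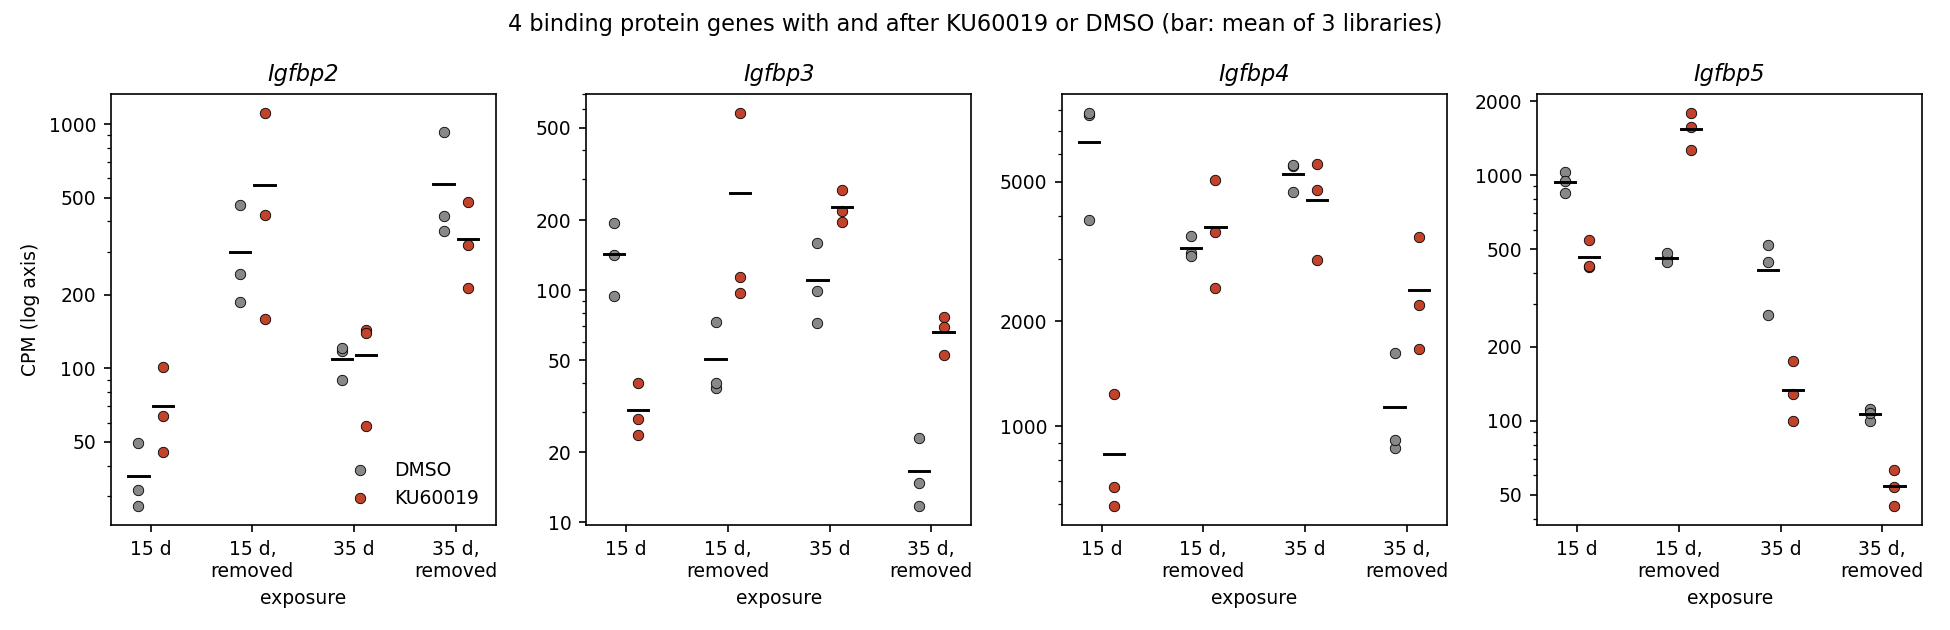
CPM on log axes (y) of Igfbp2, Igfbp3, Igfbp4 and Igfbp5 by exposure (x), grey for DMSO and red for KU60019, with 1 point per library and a bar at the mean of 3. For Igfbp5 the KU60019 points lie below DMSO at 15 d, above it after removal, and below it at 35 d and after its removal.

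Cells without the inhibitor for 20 d could also be set against cells still in it at the same 35 d after its start. Igfbp5 rose by 3.53 ± 0.31 (edgeR adjusted p = 1.65e-07), from a mean of 134 CPM in KU60019 35 d to 1540 CPM in KU60019 15 d removed. Igfbp2 rose by 2.32 ± 0.54 (edgeR adjusted p = 0.00264), Igfbp6 by 1.12 ± 0.20 (edgeR adjusted p = 2.46e-04) and Igf1r by 0.38 ± 0.14 (edgeR adjusted p = 0.0413), and Igf1 fell by 1.00 ± 0.18 (edgeR adjusted p = 3.28e-04). Called genes made up 20.1% higher and 18.1% lower of all tested. The Igf1r call was lost without S10_705, S11_715 or any KU60019 35 d library (edgeR adjusted p from 0.062 to 0.176). Without S11_715 of KU60019 15 d removed, Igfbp2 was at 1.36 (edgeR adjusted p = 0.0461) and Igfbp3 was called lower at -1.12 (edgeR adjusted p = 0.0325). The same contrast in vehicle cells, DMSO 15 d removed against DMSO 35 d, called 0 of the 8 genes with edgeR, DESeq2 and limma alike, and 2 at an unadjusted edgeR p under 0.05, where 0.161% of all genes were called. With only those 2 groups in the fit, Igfbp4 was called at -0.71 (edgeR adjusted p = 0.0376), where 252 of all genes were called against 30 in the main fit.

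After 35 d of KU60019 and 20 d without it, Igf1, Igfbp3, Igfbp4 and Igfbp7 were higher and Igfbp5 lower than in DMSO. That is 4 of 8 higher where 24.4% of all genes were, and 1 lower where 24.5% were, with medians of 0.59 for the 8 and -0.00 for all genes. The higher values do not mean a rise from KU60019 35 d. From that group to its removal, means went from 487 to 324 CPM for Igf1 and from 229 to 66.2 CPM for Igfbp3. They went from 4440 to 2450 CPM for Igfbp4 and from 1010 to 1020 CPM for Igfbp7. In DMSO these means went from 380 to 183, 111 to 16.6, 5270 to 1140 and 910 to 530 CPM. The change within KU60019 was not tested. Leaving out the libraries with over 0.4% ribosomal RNA, which removes 2 of the 3 controls, kept the call for Igf1 alone. The values then were 1.55 for Igfbp3 (edgeR adjusted p = 0.141), 0.63 for Igfbp4, -0.96 for Igfbp5 (edgeR adjusted p = 0.0784) and 0.44 for Igfbp7, the lone control library being assumed to vary like the other groups. Pericyte and smooth muscle markers summed to 158 to 243 CPM against 502 to 909 CPM, with 3 of 7 called lower and 2 higher. Of Schwann cell markers 5 of 7 were called higher, with overlapping sums of 24.3 to 49.5 CPM and 19.1 to 31.8 CPM. Sums were higher for macrophage (68.9 to 99.7 against 12.4 to 14.5 CPM), adipocyte (81.2 to 188 against 14.4 to 30.4 CPM) and endothelial markers (23 to 29.8 against 11.5 to 16.2 CPM). They were lower for mesothelial markers (9.16 to 16.1 against 26.5 to 85 CPM). Their part was not tested. Against the effect at 35 d, only Igfbp4 differed, by 1.36 ± 0.51 (edgeR adjusted p = 0.0465), where 15.8% of genes were called up and 16.6% down. That call was lost without S13_705, S14_715, S15_716, S17_715, S18_716, S19_705, S20_715, S22_705 or S24_716 (edgeR adjusted p from 0.0551 to 0.156).

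At 10 d after X-rays, Igfbp2 and Igf1r were higher and Igfbp3, Igfbp4 and Igfbp5 lower than in DMSO 15 d. Over all genes 14.1% were called higher and 16.8% lower, with medians of -0.09 for the 8 genes and -0.01 for all. Fibroblast markers summed to 18800 to 24800 CPM against 35000 to 52100 CPM, with 5 of 10 called lower and 1 higher, and pericyte and smooth muscle markers to 586 to 866 CPM against 253 to 389 CPM, with 2 of 7 called higher and 2 lower. Of 12 endothelial markers 9 were called lower, at 23 to 27.7 CPM against 43.9 to 135 CPM. The part of these lists was not tested. The choice of DMSO group set these values. Against DMSO 35 d, Igfbp3, Igfbp4 and Igfbp5 were still called lower, at -1.75, -1.32 and -1.30, but Igf1r (0.24, edgeR adjusted p = 0.217) and Igfbp2 were not called. Against the average of all 4 DMSO groups, Igfbp5 (-1.16) and Igf1r (0.31) kept their calls, and Igfbp2 (0.47, edgeR adjusted p = 0.407), Igfbp3 (-0.88, edgeR adjusted p = 0.108) and Igfbp4 (-0.67, edgeR adjusted p = 0.0986) lost them. Igfbp6 was newly called lower against that average, at -0.46 (edgeR adjusted p = 0.03). Against DMSO 35 d removed, Igfbp2 was lower at -1.36 (edgeR adjusted p = 0.0335), Igfbp4 higher at 0.89 (edgeR adjusted p = 0.043), and Igfbp3 and Igfbp5 were at 0.98 and 0.64 without a call. Also called with that control were Igf1 at 0.87 (edgeR adjusted p = 3.82e-04), Igfbp7 at 0.96 (edgeR adjusted p = 0.0173), Igf1r at 0.52 (edgeR adjusted p = 0.00418) and Igfbp6 at -0.60 (edgeR adjusted p = 0.0133). Of all genes, 5101 were then called higher and 4974 lower.

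Irradiated cells were also set directly against KU60019 15 d, since both comparisons with DMSO 15 d use the same controls. Igfbp3, lower in both, differed between them by 0.11 ± 0.48 without a call (edgeR adjusted p = 0.91), and 5 other genes were called. Relative to KU60019 15 d, irradiated cells had higher Igfbp2 by 1.67 ± 0.53 (edgeR adjusted p = 0.0252), Igfbp4 by 1.34 ± 0.37 (edgeR adjusted p = 0.0103), Igf1 by 1.03 ± 0.18 (edgeR adjusted p = 2.35e-04) and Igfbp6 by 0.63 ± 0.20 (edgeR adjusted p = 0.0212). For Igfbp5 the value was -1.48 ± 0.29, lower in irradiated cells (edgeR adjusted p = 6.81e-04). Of all genes 12.5% were called higher and 11.1% lower. The call was lost for Igfbp2 without S4_705, S6_716, S26_715 or S27_716, for Igfbp4 without S5_715, S6_716 or S27_716, and for Igfbp6 without S5_715, S6_716, S25_705 or S27_716 (edgeR adjusted p from 0.0536 to 0.105). With only these 2 groups in the fit, Igfbp4 and Igfbp5 were not called (edgeR adjusted p = 0.0557 and 0.0521).

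The vehicle groups also differed from each other. In the comparison with DMSO 35 d removed, time in culture, removal of DMSO and the libraries' ribosomal RNA shares cannot be told apart. The comparison of DMSO 35 d with DMSO 15 d involved no removal, and its libraries held 0.0252% to 0.141% ribosomal RNA. Between 15 d and 35 d of DMSO only Igfbp5 was called, at -1.19 ± 0.29 (edgeR adjusted p = 0.0344), from 939 ± 93.6 to 411 ± 128 CPM (SD, n = 3). The background was 1.11% of genes lower and 0.455% higher, and leaving out any of the 6 libraries ended the call (edgeR adjusted p from 0.0523 to 0.212). From DMSO 35 d to 20 d after its removal, 6 of the 8 genes changed. The values were -2.73 ± 0.52 for Igfbp3 (edgeR adjusted p = 1.08e-04), -2.22 ± 0.38 for Igfbp4 (edgeR adjusted p = 3.58e-05), -1.95 ± 0.29 for Igfbp5 (edgeR adjusted p = 9.02e-06) and -1.06 ± 0.18 for Igf1 (edgeR adjusted p = 3.67e-05). Igfbp7 fell by 0.78 ± 0.33 (edgeR adjusted p = 0.0404), a call lost without S19_705 of DMSO 35 d removed (-0.41) or any DMSO 35 d library (edgeR adjusted p from 0.0507 to 0.203) and with the replicate block (edgeR adjusted p = 0.0524). Igfbp2 rose by 2.38 ± 0.54 (edgeR adjusted p = 6.77e-04). This contrast called 32.6% of all genes lower and 31.5% higher, and the medians were -0.92 for the 8 genes and -0.04 for all. Fibroblast markers summed to 14000 to 18300 CPM after removal against 42900 to 52700 CPM before it.

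The order of the groups differed from gene to gene. Igfbp5 resolved best: KU60019 15 d removed stood apart at the top, DMSO 15 d apart below it, then KU60019 15 d, DMSO 15 d removed and DMSO 35 d, overlapping in sequence, then irradiated cells, KU60019 35 d and DMSO 35 d removed, again overlapping, and KU60019 35 d removed apart at the bottom. In all, 4 of its 8 neighbouring pairs of groups did not overlap, the most among the 8 genes. The number of such pairs in other tested genes is not given here. For Igfbp6, 3 of 8 pairs did not overlap, with KU60019 15 d removed at the top (448 ± 54.1 CPM, SD, n = 3) and KU60019 15 d at the bottom (79 ± 14.6 CPM, SD, n = 3). Igf1 ran from 487 ± 65.8 CPM in KU60019 35 d to 164 ± 39.1 CPM in KU60019 15 d (SD, n = 3), with 2 of 8 pairs apart. The top of Igfbp3 was shared by KU60019 15 d removed and KU60019 35 d, and DMSO 35 d removed stood apart at the bottom, at 16.6 ± 5.88 CPM (SD, n = 3). Igfbp4 declined from DMSO 15 d (6490 ± 2260 CPM) through DMSO 35 d (5270 ± 520 CPM) to KU60019 15 d (835 ± 352 CPM, SD, n = 3) without a gap between any neighbours. Igfbp7 had DMSO 15 d removed apart at the top (1290 ± 17 CPM, SD, n = 3) and the other 8 groups overlapping in sequence.

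Summed over the 6 binding protein genes, TPM were 6740, 5220 and 4230 with DMSO for 15 d and 2470, 1910 and 1860 with KU60019. At 35 d they were 4830, 4840 and 5230 with DMSO and 4370, 3060 and 3840 with KU60019. In DMSO 35 d removed, which had the lowest mean (1660 ± 973, SD, n = 3) and the widest spread, the sums were 775, 1500 and 2700, against 3280, 2950 and 3100 in KU60019 35 d removed. The composition changed with the sum: Igfbp4 gave 61.1% ± 6.63 of it in DMSO 15 d and 17.3% ± 3.78 in KU60019 15 d, where Igfbp7 gave 65% ± 2.1 (SD, n = 3). In KU60019 15 d removed, Igfbp4 gave 33.2% ± 9.6 and Igfbp6 14% ± 1.36 (SD, n = 3). Since Igf1 was lower as well, the sum per unit of Igf1 TPM at 15 d was 58.3 ± 12.3 with DMSO and 53.1 ± 2.75 with KU60019 (SD, n = 3), and these ranges overlap. The mean of this ratio was highest in KU60019 15 d removed, at 84.6 ± 12.6 against 42.2 ± 1.62 in its DMSO controls (SD, n = 3). In DMSO 35 d removed the ratio was 27.6, 49.7 and 100, the last being the highest of any library. RNA sums do not measure secreted protein.

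Of 58 further genes of the axis, listed with earlier results of these data known, 55 were tested. KU60019 at 15 d was called for 7 higher and 16 lower, at 35 d for 3 and 9, after removal at 15 d for 14 and 16, after removal at 35 d for 14 and 20, and X-rays for 5 and 12. Their median log2 fold changes were -0.24, -0.17, -0.11, -0.09 and -0.19. Of all genes tested, 13.2%, 9.7%, 24.7%, 24.4% and 14.1% were called higher in that order. Called lower were 17.1%, 8.4%, 24%, 24.5% and 16.8%. Igf2, the second ligand, was lower than in DMSO by 1.22 ± 0.38 at 15 d (edgeR adjusted p = 0.0198) and higher by 1.30 ± 0.39 after removal at 35 d (edgeR adjusted p = 0.00839). Igf1 had the same directions in these comparisons. Igf2 was not called in the others, at 0.44 ± 0.38 at 35 d and -0.23 ± 0.38 with X-rays. After removal at 15 d, where Igf1 was lower, Igf2 was at 0.38 ± 0.38 (edgeR adjusted p = 0.423). Igf2r, whose receptor clears IGF-II, was lower in 4 comparisons, at -1.29 ± 0.17 at 15 d, -0.70 ± 0.17 at 35 d, -0.63 ± 0.17 after removal at 15 d and -1.06 ± 0.17 with X-rays (edgeR adjusted p of at most 0.00569). At 35 d its ranges overlapped, at 110, 92.2 and 83.3 CPM with KU60019 against 104, 187 and 172 CPM with DMSO. Insr, the insulin receptor, was lower than in DMSO by 0.56 ± 0.11 at 15 d (edgeR adjusted p = 5.03e-04) and higher by 0.75 ± 0.11 after removal at 35 d (edgeR adjusted p = 8.43e-06).

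Among genes that act on the binding proteins, Pappa2, a protease that cleaves Igfbp3 and Igfbp5 proteins, was lower at -1.62 ± 0.35 at 15 d, -2.22 ± 0.36 at 35 d and -2.19 ± 0.35 after removal at 15 d, and higher at 1.97 ± 0.36 after removal at 35 d (edgeR adjusted p of at most 0.00129). Pappa, whose product cleaves Igfbp4, was higher than in DMSO by 1.10 ± 0.24 after removal at 35 d (edgeR adjusted p = 6.45e-04) and was not called in the other 4 comparisons. Stc1, a stanniocalcin that blocks these proteases, rose by 1.46 ± 0.24 after removal at 15 d and by 0.82 ± 0.24 with X-rays and fell by 1.85 ± 0.24 after removal at 35 d (edgeR adjusted p of at most 0.0107). Stc2, its relative, was at -0.71 ± 0.23 at 15 d and -0.67 ± 0.23 with X-rays and rose by 0.72 ± 0.24 after removal at 35 d (edgeR adjusted p of at most 0.0337). Htra1, a secreted protease that also cleaves binding proteins, was not called by edgeR in any of the 5. Lrp1, an endocytic receptor, was lower than in DMSO in 4 comparisons, with values from -0.83 to -0.72, and higher by 0.53 ± 0.19 after removal at 35 d (edgeR adjusted p of at most 0.0287). Its DMSO levels were 1850, 1180 and 1650 CPM at 15 d, where rho with length was 0.34, -0.10 and 0.31. At 35 d they were 1280, 1930 and 1950 CPM, with rho at 0.09, 0.34 and 0.30. Igf2r and Pappa2 were also lowest in S2_715 and S13_705 of these groups. The part of the length trend in the calls of these partner genes is not given here.

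Upstream and downstream of the receptor, Ghr, the growth hormone receptor, was higher than in DMSO by 0.51 ± 0.13 at 15 d, 0.69 ± 0.13 at 35 d and 1.10 ± 0.13 after removal at 35 d, and lower by 0.84 ± 0.13 with X-rays (edgeR adjusted p of at most 0.00527). Between 35 d and its removal, the mean of Ghr went from 238 to 154 CPM in KU60019 and from 148 to 71.6 CPM in DMSO. Jak2, the kinase of Ghr, and Shc1, an adaptor of the receptor, fell in all 5 comparisons, with values from -0.77 to -0.42 for Jak2 and from -0.92 to -0.36 for Shc1 (edgeR adjusted p of at most 0.049). At 15 d the Shc1 ranges overlapped, at 174, 143 and 137 CPM with KU60019 against 206, 166 and 210 CPM with DMSO. Jak2 and Shc1 were also lowest in S2_715 of DMSO 15 d and S13_705 of DMSO 35 d within those groups. Mapk3, a kinase of the Ras pathway, rose by 0.47 ± 0.13, 0.36 ± 0.12 and 0.38 ± 0.12 at 15 d, 35 d and after removal at 15 d, and fell by 0.50 ± 0.13 after removal at 35 d (edgeR adjusted p of at most 0.0483). Eif4ebp1, a repressor of translation initiation, rose by 0.97 ± 0.21 at 15 d, 0.53 ± 0.20 after removal at 15 d and 0.86 ± 0.20 with X-rays and fell by 0.81 ± 0.20 after removal at 35 d (edgeR adjusted p of at most 0.0349).

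**Figure D4:**
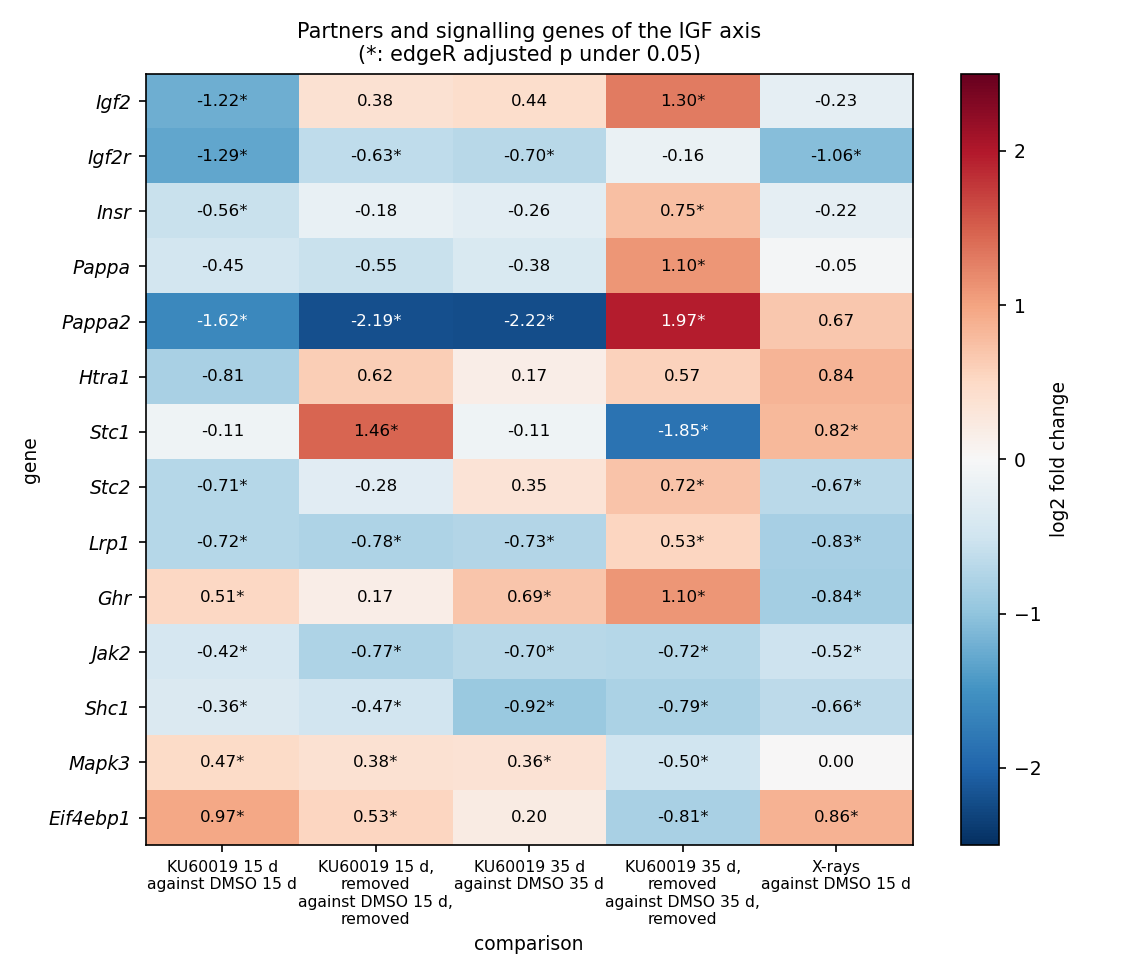
Log2 fold changes (colour and printed value) of 14 further genes of the IGF axis (y) in the 5 comparisons with DMSO (x); stars mark an edgeR adjusted p under 0.05. Jak2 and Shc1 are starred below 0 in all 5 columns, while Pappa2, at -1.62, -2.19 and -2.22 in 3 columns, is at 1.97 after removal at 35 d.

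Which genes varied most like each member was read from Pearson's r of log2(CPM + 0.5) over the 27 libraries and 14349 genes, a description in which points share groups and scaling. Igfbp4 was most like C3 (0.94), Serpina3n (0.93) and Plppr3 (0.92), and Igfbp3 most like Rnf170 (0.92), Slc7a2 (0.89) and Os9 (0.89). For Igfbp5 these were Dip2b (0.92), Meis1 (0.91) and Camk2d (0.89), for Igfbp6 Tnnt1 (0.91), Macrod1 (0.89) and Snhg18 (0.89), and for Igfbp2 Rflnb (0.90), Mirg (0.87) and Rrad (0.86). Igfbp7 was nearest Ccndbp1 (0.91), Slc45a4 (0.91) and Ost4 (0.90), Igf1 nearest Tmem50b (0.94), Dhdh (0.90) and Coro7 (0.89), and Igf1r nearest Itga3 (0.86), Lmod1 (0.84) and Myh11 (0.84). By Spearman's rho all 3 neighbours of Igfbp5 were the same and none of those of Igfbp4 or Igfbp7. Among the 8 genes themselves r was highest for Igfbp3 with Igfbp4 (0.73) and Igfbp4 with Igf1 (0.72). The neighbouring genes Igfbp2 and Igfbp5 had r = -0.28.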

How the data were processed

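Gene-level RNA counts and TPM of 27 libraries were used as deposited. The submitters' processing notes name featureCounts and mm10 for the counts the authors deposited. The deposited TPM are relative to gene length and library size. No source used here gives the aligner, annotation or strand setting. The test was that of edgeR 4.0.16 under R 4.3.3 (TMM, filterByExpr with a minimum count of 10, robust quasi-likelihood F-test, all 9 groups in 1 model, Benjamini-Hochberg over 18684 genes, call under 0.05), which was tested on simulated data. The SE is the absolute log2 fold change over the root of F and is approximate. The 8 genes are the fixed members and are all named. Further genes are named if called in 4 of 5 comparisons with DMSO or if direct partners. Members and lists were chosen with earlier results of these data known. Alternatives were RLE factors, library size alone, no filter, DESeq2 1.42.0, limma 3.58.1 on log2(TPM + 1) and log2(TPM + 0.1), a replicate block, removal of length trends, only the compared groups, and leaving out libraries. By the correlation of their deviations, the replicate numbers paired the libraries for KU60019 15 d with DMSO 15 d (r from 0.30 to 0.45) and for KU60019 15 d removed with KU60019 35 d (0.11 to 0.39). Of the other comparisons none had every pair of its groups above 0.1, although KU60019 35 d removed with KU60019 35 d did (0.14 to 0.36). The lowest count of any of the 8 genes in a library was 169, for Igfbp3.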

Additional observations from a re-analysis of the deposited data

Results flagged for a closer look

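The KU60019 effect differed between times or phases for several of the 8 genes in a direct test of the difference (log2, edgeR). From 15 d to 35 d the effect moved by 3.28 for Igfbp3, 2.71 for Igfbp4, 1.35 for Igf1, 1.25 for Igfbp6 and -0.77 for Igf1r. From 15 d to 20 d after removal it moved by 4.62 for Igfbp3, 3.16 for Igfbp4, 2.75 for Igfbp5, 2.02 for Igfbp6 and -0.62 for Igf1r. From 35 d to 20 d after removal it moved by 1.36 for Igfbp4. The first 2 sets share the 15 d libraries.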

How the results depend on the processing

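Values followed were those of the 8 genes in the 5 comparisons with DMSO and their called values elsewhere. Of 704 such log2 fold changes under settings other than leaving out 1 library, 619 kept direction and side of the threshold, 45 lost the call, 16 gained it and 24 changed sign. No called value changed sign under another scaling, filter, test or block. Sign changes among them were, with limma on log2(TPM + 1) and log2(TPM + 0.1), Igf1r at 15 d (-0.01, -0.00), at 35 d Igfbp2 (-0.40, -0.40), Igfbp7 (-0.20, -0.20) and Igf1 (-0.01, -0.01), Igfbp4 after removal at 15 d (-0.43, -0.43), Igf1r after removal at 35 d (0.18, 0.20) and Igf1 with X-rays (-0.16, -0.16). With library size alone they were Igf1r after removal at 35 d (0.04) and Igf1 with X-rays (-0.01), without the length trend Igfbp2 (-0.08) and Igfbp7 (-0.02) at 35 d, and with the replicate block Igfbp2 at 35 d (-0.12). With DMSO 35 d removed as the control of X-rays they were Igfbp2 (-1.36), Igfbp3 (0.98), Igfbp4 (0.89) and Igfbp5 (0.64), and with DMSO 35 d Igf1 (-0.19). Without 1 library, values that turned sign ranged from -0.16 to 0.36 for Igfbp2 at 35 d, -0.04 to 1.39 for Igfbp2 and -0.09 to 0.42 for Igfbp4 after removal at 15 d, and, with X-rays, -0.39 to 0.03 for Igfbp6 and -0.03 to 0.10 for Igf1. Among uncalled values elsewhere, limma gave calls of the opposite sign for Igfbp6 in DMSO 35 d removed against DMSO 35 d (0.25 to -0.56 in both fits) and in the effect after removal minus that at 35 d (-0.04 to 0.76 and 0.77), and leaving out S11_715 did so for Igfbp3 in KU60019 15 d removed against KU60019 35 d (0.20 to -1.12). The cause was not tested.

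The number of the 8 genes called moved as follows. At 35 d it was 4 with only the compared groups and 1 to 3 without 1 library, against 2. After removal at 35 d it was 1 without the libraries above 0.4% ribosomal RNA and 3 to 5 without 1 library, against 5. With X-rays it was 3 with DMSO 35 d or all 4 DMSO groups averaged as control, against 5. The effect after removal minus that at 35 d gave 2 with library size alone, 0 without a filter, 7 with either limma fit and 0 to 2 without 1 library, against 1. With limma on log2(TPM + 1), 7723 of all genes were called higher and 808 lower in that comparison, against 2952 and 3108 in the main fit. DMSO 35 d against 15 d gave 2 with the replicate block and 0 with either limma fit, only the compared groups, without the libraries above 0.4% or without any 1 library, against 1. DMSO 15 d removed against DMSO 35 d gave 1 with only the compared groups, against 0. X-rays against KU60019 15 d gave 3 with only the compared groups or without the libraries above 0.4%, and 2 to 5 without 1 library, against 5. The replicate block changed no other count by over 1.5 times. Pairing by number held for all groups of a comparison only in the 2 comparisons named under the processing, and for some of the groups in the tests of differences between effects.

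TPM are not scaled for composition: with limma on log2(TPM + 1) the median of all genes moved to -0.18 at 15 d, -0.33 at 35 d, -0.47 and 0.32 after removal at 15 d and 35 d, and -0.16 with X-rays. The share of all calls that were higher went from 43.5% to 24.1%, 53.6% to 13.4%, 50.7% to 16.2%, 49.9% to 77.3% and 45.7% to 29.1% in that order, and with library size alone to 70.4% after removal at 35 d. With limma on log2(TPM + 1) the median was 0.66 for the effect after removal minus that at 35 d, with 90.5% of calls higher. For DMSO 35 d removed against DMSO 35 d the median was -0.67, with 17.9% of calls higher.

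The number of all genes called moved by over 1.5 times as follows. After removal at 35 d it was 9130, and 5487 with only the compared groups and 5596 without the libraries above 0.4% ribosomal RNA. With X-rays it was 5765, and 10075 against DMSO 35 d removed. For the effect at 35 d minus that at 15 d it was 2184, and 1339 with limma on log2(TPM + 0.1). Without the libraries above 0.4%, the effect after removal minus that at 35 d went from 6060 to 2966, and DMSO 35 d removed against DMSO 35 d from 11978 to 7381. DMSO 35 d against 15 d gave 292, and 476 with DESeq2, 141 and 102 with the limma fits and 14 with only the compared groups. DMSO 15 d removed against DMSO 35 d gave 30, and 51 with the block, 166 with DESeq2, 10 with limma on log2(TPM + 0.1) and 252 with only the compared groups. KU60019 15 d removed against KU60019 35 d gave 7133, and 4222 with only the compared groups. X-rays against KU60019 15 d gave 4407, and 2795 and 2682 with the limma fits and 7974 with only the compared groups.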
